A study of Homo sapiens with 15 samples.

Results

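Transcripts of the proteasome and of its regulators were followed in RNA-seq libraries of UKE-1 cells. Genes were taken by name and annotation: protein-coding genes whose symbol is PSM, a letter from A to G and a number, with a mean raw count of at least 10 over the 15 libraries. Of the 58735 genes in the count table, 49 had such a symbol and 46 reached the count. The rule uses no difference between groups, but it was set with earlier results of these data known. The 46 genes comprised 14 subunits of the catalytic core, 17 subunits of the 19S regulatory particle, 5 immunoproteasome genes, 6 assembly factors, 3 further regulators (PSME3, PSME4 and PSMF1) and PSMC3IP. The last of these, a cofactor of meiotic recombination named after a binding partner, shares only the prefix. The member nearest to the count minimum was PSMA2, with a mean of 120.1 counts. Below it were PSMD5, an assembly chaperone of the 19S particle, with a mean of 2.6 counts, and the tissue-restricted core subunits PSMB11 and PSMA8, with means of 0.0667 and 0 counts. All 46 genes also passed the filter on low counts used for the tests, which 16146 genes of the table passed.

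UKE-1 is an established human cell line grown from a patient whose essential thrombocythaemia had turned into acute leukaemia, and it carries an activating mutation of JAK2. The libraries formed 5 groups of 3: untreated cells, cells given TNF-α alone, and cells given TNF-α followed by MCL, by ruxolitinib or by the pair of drugs. MCL is taken as micheliolide, a plant sesquiterpene lactone that the series title names. Ruxolitinib inhibits the kinases JAK1 and JAK2. The inflammatory cytokine TNF-α was shared by all the drug groups, so each drug was seen only on top of it, and drugs without TNF-α were not analysed here. The labels place RNA collection 3 h after treatment and call the cells wild type. The sources used here give no doses, no length of the TNF-α exposure and no statement that cultures were separate, so the p-values measure the spread between libraries, which may be technical.

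Libraries held between 15476399 and 18035604 counts, with mitochondrial transcripts at 4.21% to 5.53%. The mitochondrial share moved with the groups: it was 5.10% to 5.32% in untreated cells, 4.94% to 5.21% after TNF-α alone, 4.35% to 4.78% after MCL, 5.44% to 5.53% after ruxolitinib and 4.21% to 4.46% after the pair. Of 11 haematopoietic marker genes 9 reached a mean of 1 CPM (counts scaled to a common library size with TMM factors), while MPO and CD38 lay below at 0.826 and 0.152 CPM. The epithelial markers EPCAM, CDH1 and KRT19 were at 0 in all libraries, and KRT8 and KRT18 averaged 47.1 and 76.1 CPM; the summed epithelial markers went from 125 to 135 CPM after TNF-α alone to 109 to 113 after MCL, 114 to 127 after ruxolitinib and 101 to 108 after the pair. The summed haematopoietic markers moved with the drugs, from 3150.2 to 3176 CPM in untreated cells and 3224 to 3276 with TNF-α alone to 2730 to 2765 for MCL, 3207 to 3238 for ruxolitinib and 2205 to 2289 for the pair. The part of these marker sums and of the mitochondrial share in the results below was not tested, and in bulk RNA fewer cells of a type and less RNA per cell cannot be told apart.

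The proteasome degrades proteins that carry ubiquitin. Its barrel-shaped core is built from alpha subunits, encoded by PSMA genes, and beta subunits, encoded by PSMB genes, and the beta subunits PSMB5, PSMB6 and PSMB7 hold the active sites. The 19S particle caps the barrel, recognises ubiquitin, removes it and threads the substrate in by means of the ATPases PSMC1 to PSMC6. In blood cells and after interferon, PSMB8, PSMB9 and PSMB10 replace the constitutive catalytic subunits to form the immunoproteasome, and PSME1 and PSME2 form the activator PA28, both known for making peptides for MHC class I. PSMG1 to PSMG4 chaperone core assembly, and PSMD5, PSMD9 and PSMD10 chaperone the 19S base. When proteasome activity falls short, the transcription factor NFE2L1 is known to raise proteasome genes together through antioxidant response elements.

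Short promoter sequences are shown for 2 kinds of element known to regulate such genes. They were picked after the combination, compared with TNF-α alone, had given higher core and 19S genes and lower immunoproteasome genes. The part of the elements in that split was not tested. RefSeq promoters on GRCh38.p14 were found for 40 of the 46 genes, and the 250 bases before each start were searched on both strands. In 37 of the 40, the last 30 bases of the RefSeq promoter sequence were part of an annotated transcript of the gene. The RefSeq start can differ from the gene span used for counting. The windows shown for PSMB9, PSMB10, PSME2 and PSMG4 lie inside those spans. Capitals mark the match, and each window holds 30 bases, read in the direction of the gene. The first sequences hold the interferon-stimulated response element, searched as GAAA, any 2 bases and GAAA:
PSMB10, chr16:67936852-67936881, minus strand: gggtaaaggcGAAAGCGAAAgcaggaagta
PSME2, chr14:24146619-24146648, minus strand: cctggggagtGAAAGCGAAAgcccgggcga
PSMG4, chr6:3258904-3258933, plus strand: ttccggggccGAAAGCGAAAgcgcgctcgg
PSMA4, chr15:78540155-78540184, plus strand: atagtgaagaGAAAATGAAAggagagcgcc
PSMB4, chr1:151399495-151399524, plus strand: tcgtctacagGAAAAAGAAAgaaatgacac
The next hold the antioxidant response element, searched as TGACNNNGC, in core, 19S and immunoproteasome genes (PSMB9 has it on the other strand):
PSMB3, chr17:38752627-38752656, plus strand: gcctccgtttTGACTTTGCaaccaaactac
PSMD12, chr17:67366723-67366752, minus strand: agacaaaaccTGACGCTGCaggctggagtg
PSMD3, chr17:39980760-39980789, plus strand: tcccctttgtTGACTCGGCcatcggcctgc
PSMB9, chr6:32854034-32854063, plus strand: gggcggggctGCCTCGTCActtgtctcggg
PSME1, chr14:24136098-24136127, plus strand: atggcagggcTGACCCCGCctcctccatcc
PSME2, chr14:24146766-24146795, minus strand: ccctggactgTGACCCAGCcagcaccgcct

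The interferon element was present in 5 of the 40 promoters (12.5%), against 3.07% of all 27305 promoters of the table. Immunoproteasome genes held it in 2 of 5 cases, core genes in 2 of 10, assembly genes in 1 of 5, 19S genes in 0 of 16 and the further regulators in 0 of 3. In PSMB10 and PSME2 the matches lay 21 to 12 and 28 to 19 bases before the start, and both read GAAAGCGAAA, as did the match of PSMG4. The antioxidant element was present in 10 of the 40 promoters (25%), against 11.03% of all promoters. It was found in 3 of 5 immunoproteasome, 3 of 5 assembly, 2 of 16 19S and 1 of 10 core promoters. In PSME2, the one promoter of the set with both elements, they did not overlap. Of the other motifs searched, the STAT element TTCNNNGAA was in 4 promoters (10% against 6.78%), the NF-kB element (GGG, any 2 bases, TT, any base, CC) in 1 (2.5% against 5.08%), the E-box CACGTG in 3 (7.5% against 6.49%) and the heat shock element (GAA, TTC and GAA, each 2 bases apart) in 0 (against 0.439%). A match describes the letters of these windows and is no measured binding site.

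Before any treatment the core and 19S transcripts differed in level per kilobase of annotated exon. Per kilobase of exon, the levels in untreated cells were highest for the alpha subunit PSMA7, at 149 ± 3.05 RPKM (CPM per kilobase, SD, n = 3), followed by the beta subunits PSMB3 at 98.01 ± 5.15 and PSMB4 at 84.8 ± 2.90. The 19S ATPase PSMC3 stood at 72.7 ± 3.03 RPKM, and its fellow PSMC6 at 10.7 ± 0.152. The length used is that of all annotated exons of a gene merged, 2276 bases for PSMC3 and 7482 for PSMC6. Their mean counts over all libraries were 3041 and 1459, so the order per kilobase depends on these lengths. How much of the merged length was transcribed in these cells was not tested. Among immunoproteasome genes the order was PSME1 at 73.0 ± 3.31, then PSMB8 at 22.8 ± 1.35 and PSME2 at 22.7 ± 1.08, whose values overlap, then PSMB10 at 11.8 ± 0.353 and PSMB9 at 4.45 ± 0.227. The lowest levels, all within overlapping ranges, were 1.38 ± 0.0575 RPKM for PSMA2, 1.32 ± 0.193 for PSMA6 and 1.31 ± 0.0888 for PSMD9. These 3 genes share 97.1%, 70.4% and 58.7% of their coding bases with same-strand exons of another annotated gene, as do PSMA1 (88.6%) and PSMB10 (58.3%). The sources used here do not say how the counting treated reads in shared exons, so the levels of these 5 genes are uncertain, and the effect of the sharing was not tested.

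TNF-α raised part of the immunoproteasome set and left most other proteasome genes without a call. In the comparison with untreated cells, 6 of the 46 genes passed as higher and 2 as lower (edgeR's quasi-likelihood test, Benjamini-Hochberg adjusted p under 0.05). Of all tested genes 14.1% were called higher and 12.5% lower, so neither share of the 46 exceeded the background. The median log2 fold change was 0.00 over the 46 and 0.00 over all tested genes. Among the 5 immunoproteasome genes 3 rose: PSMB9, PSME1 and PSME2. The other genes that rose were the alpha subunit PSMA6, the ATPase PSMC4 and PSMC3IP, and the genes that fell were the assembly chaperones PSMG1 and PSMG2.

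PSMB9, the caspase-like site's replacement subunit at chr6:32844136-32859585, had 13.1, 14.4 and 13.5 CPM in the untreated libraries and 19.4, 16.4 and 19.7 with TNF-α. All the TNF-α libraries lay above all the untreated ones, and the log2 fold change was 0.43 ± 0.10 (± marks the SE of log2 values throughout, adjusted p = 0.000554). PSME2, the beta subunit of PA28 at chr14:24143362-24147570, went from 78.8, 85.7 and 79.2 CPM to 98.3, 95.3 and 103. These groups did not overlap either, with a log2 fold change of 0.28 ± 0.05 (adjusted p = 7.99e-07). The alpha subunit of PA28, PSME1 at chr14:24136158-24138967, had 136, 124 and 130.4 CPM before and 142, 147 and 152 after TNF-α. Its libraries separated fully as well, at a log2 fold change of 0.18 ± 0.04 (adjusted p = 0.000327).

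PSMB8, which replaces PSMB5 in the chymotrypsin-like site, lies at chr6:32840717-32844703 next to PSMB9 and had 65.5, 72.9 and 66.5 CPM in untreated cells and 72.8, 73.9 and 74.1 with TNF-α. PSMB8 and PSMB9 run in opposite directions and share 4.64% and 4.52% of their exon bases, and 14.02% of the coding bases of PSMB8 lie under its antisense gene PSMB8-AS1 (mean count 64.5), so a small part of their reads cannot be assigned without strand. Untreated replicate 2 of PSMB8 reached into the TNF-α range, and the log2 difference of 0.11 ± 0.05 (adjusted p = 0.148) did not pass. PSMB10 at chr16:67934502-67937087, which replaces PSMB7, had 21.3, 21.9 and 22.6 and 25.0, 24.3 and 25.2 CPM. Its groups did not overlap, yet its log2 difference of 0.18 ± 0.08 (adjusted p = 0.0943) did not pass. Groups without overlap were found for 12 of the 46 genes and for 38.8% of all tested genes in this comparison.

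Outside the immunoproteasome the TNF-α calls were less stable. The log2 fold changes were 0.39 ± 0.12 (adjusted p = 0.00775) for PSMA6, 0.13 ± 0.04 (adjusted p = 0.0241) for PSMC4, -0.13 ± 0.04 (adjusted p = 0.0132) for PSMG1 and -0.16 ± 0.06 (adjusted p = 0.0358) for PSMG2. Without untreated replicate 3 the count of higher genes was 3 in place of 6, and PSMA6 had an adjusted p of 0.0783. The PSMC4 and PSMC3IP calls did not hold under DESeq2 (adjusted p = 0.0846 and 0.105), and without TNF-α replicate 1 neither PSMG1 (adjusted p = 0.0573) nor PSMG2 (0.106) passed. With libraries scaled by their totals in place of TMM, 4 genes passed as higher and 6 as lower, 4 of the latter assembly genes, and the share of higher calls among all called genes moved from 53.0% to 42.4%. The 3 immunoproteasome calls held under both scalings.

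MCL raised genes of the 19S particle and the core. Against TNF-α alone 25 of the 46 genes passed as higher and 1 as lower, where 10.9% of all tested genes were called higher and 15.1% lower. The median log2 fold change was 0.12 over the 46 genes and -0.02 over all tested genes. By role, 14 of the 17 subunits of the 19S particle rose, as did 9 of the 14 core subunits, the assembly chaperone PSMD10 and the nuclear activator PSME3. None of the 5 immunoproteasome genes rose. The changes were small, with none of the 46 reaching 1.5-fold in either direction, where 1.66% of all tested genes were higher and 5.06% lower by that much.

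**Figure D1:**
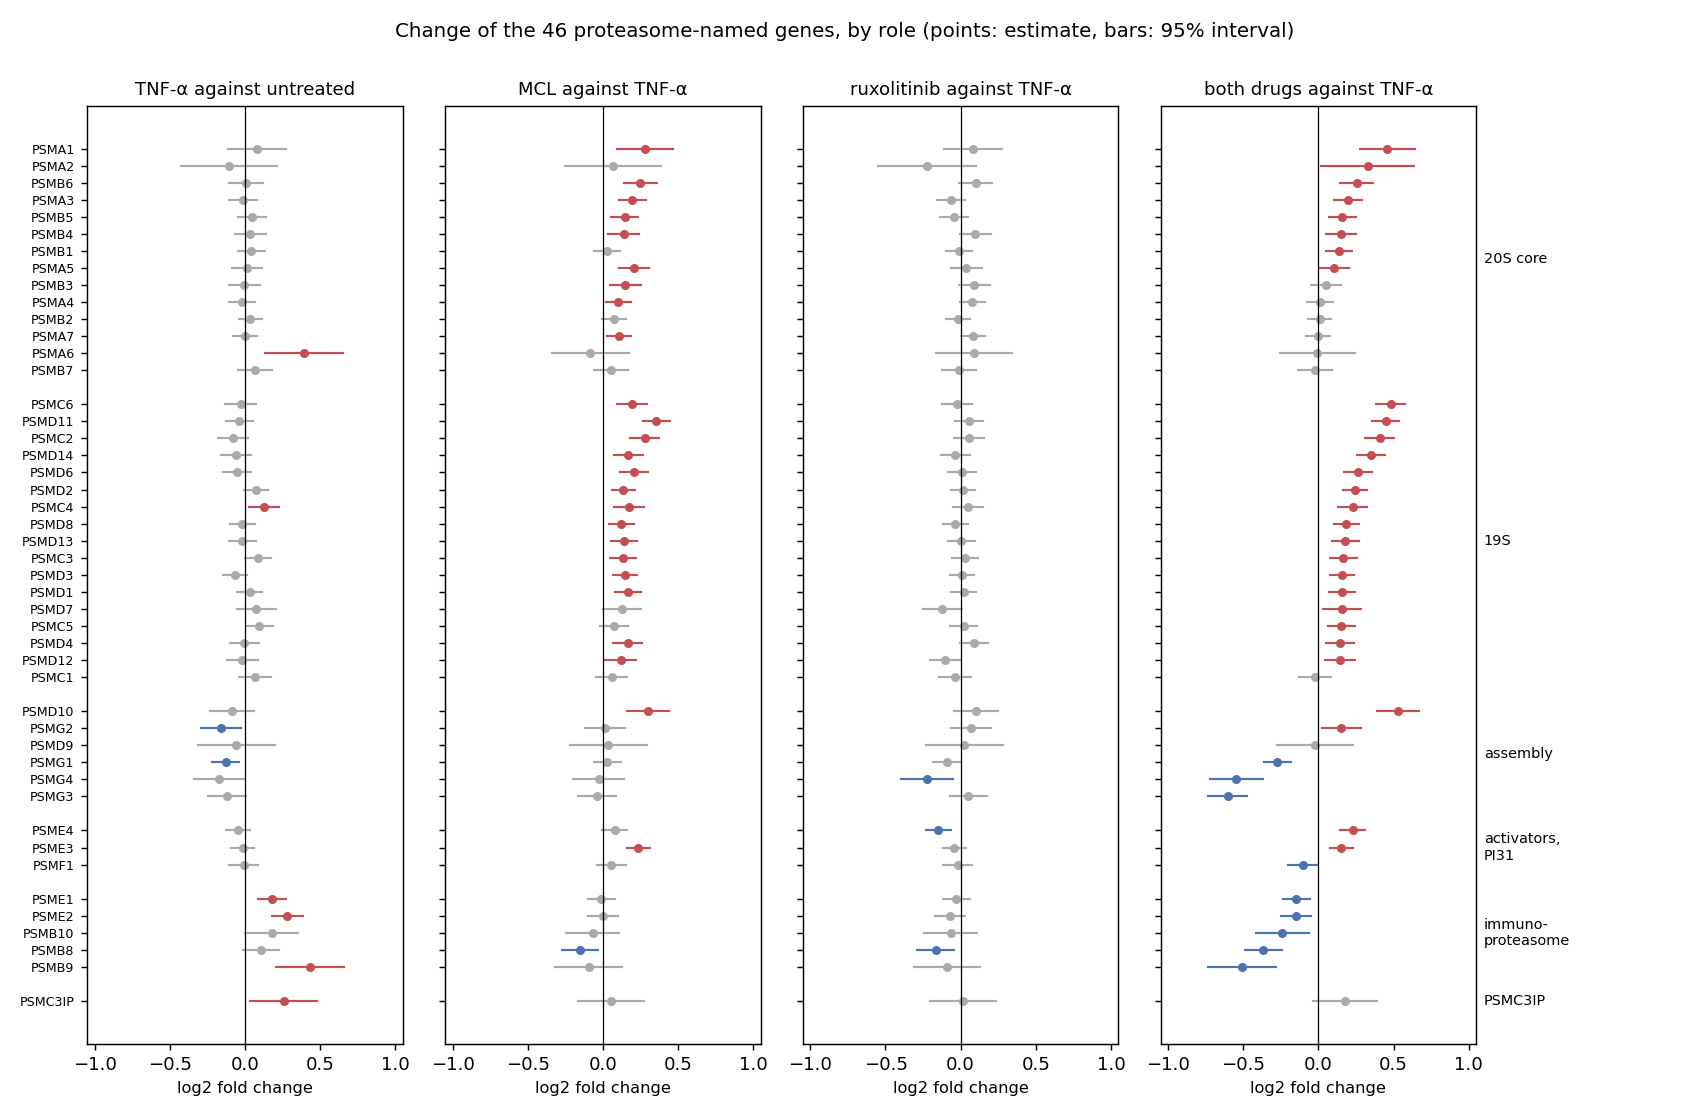
Log2 fold change (x axis) of each of the 46 genes in 4 comparisons, grouped by role, with points for the estimate and bars for the 95% interval; red passed as higher, blue as lower and grey did not pass. The 19S genes lie to the right of 0 with MCL and, except PSMC1, with both drugs, and the 5 immunoproteasome genes lie to the left of 0 with both drugs.

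The MCL call with the smallest p was PSMD11, a scaffold subunit of the 19S lid. It had 164, 161 and 144 CPM with TNF-α alone and 193, 209.5 and 199.8 with MCL. The lowest MCL library lay above the highest TNF-α library, at a log2 fold change of 0.36 ± 0.04 (adjusted p = 1.73e-10). The ATPase PSMC2 had 98.02, 104 and 101 CPM against 125, 127 and 116 with MCL, again without overlap, at 0.28 ± 0.04 (adjusted p = 5.03e-07). PSME3, which forms the PA28 gamma ring that binds core particles in the nucleus, had 216, 218 and 216 CPM against 254, 255 and 256 with MCL. Its libraries within each group lay within a few CPM of each other, and the log2 fold change was 0.24 ± 0.03 (adjusted p = 1.05e-07).

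Among core subunits the call with the smallest p with MCL was the catalytic subunit PSMB6, with 77.9, 78.4 and 79.3 CPM for TNF-α alone and 89.5, 98.6 and 92.3 with MCL, groups without overlap and a log2 fold change of 0.25 ± 0.05 (adjusted p = 4.66e-05). The chymotrypsin-like subunit PSMB5 had 114, 113 and 111 and 129, 124 and 122 CPM. All its MCL libraries exceeded all its TNF-α libraries, at 0.15 ± 0.04 (adjusted p = 0.00495). The trypsin-like subunit PSMB7 had 136, 129.6 and 139 and 135, 147 and 139 CPM, with overlap, and its log2 difference of 0.05 ± 0.05 (adjusted p = 0.484) did not pass. The alpha subunits that passed were PSMA1 (0.28), PSMA5 (0.21), PSMA3 (0.20), PSMA7 (0.11) and PSMA4 (0.10), and the structural beta subunits were PSMB3 (0.15) and PSMB4 (0.14), values being log2 fold changes. PSMB1, PSMB2, PSMA2 and PSMA6 did not pass. For PSMA1 the call rested on MCL replicates 1 and 2, at 32.9 CPM each against 23.8 in replicate 3, and without replicate 1 its adjusted p was 0.107.

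Within the 19S particle, the ATPases that rose with MCL were PSMC2, PSMC6 (0.19), PSMC4 (0.17) and PSMC3 (0.13), while PSMC1 (0.06 ± 0.05, adjusted p = 0.398) and PSMC5 (0.07 ± 0.04, adjusted p = 0.183) did not pass. Of the non-ATPase subunits the log2 fold changes ran from 0.12 for the lid subunit PSMD12 to 0.36 for PSMD11, and PSMD7 alone missed the threshold at 0.13 ± 0.06 (adjusted p = 0.0955). The deubiquitinase PSMD14, which cuts ubiquitin from the substrate, rose by 0.17, and the ubiquitin receptor PSMD4 by 0.16. The 19S chaperone PSMD10, also known as gankyrin, had 34.5, 37.4 and 35.8 CPM with TNF-α alone and 43.2, 46.1 and 43.6 with MCL. The groups did not overlap, and its log2 fold change of 0.30 ± 0.06 (adjusted p = 0.000177) stood among core chaperones PSMG1 to PSMG4 that lay between -0.04 and 0.03 with no call.

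The summed level of the 17 genes of the 19S particle was 2376 ± 18.6 CPM with TNF-α alone and 2662 ± 63.1 with MCL (SD, n = 3), and that of the 14 core genes 1750.1 ± 34.3 and 1902 ± 49.5. With library totals as the scaling 29 genes passed as higher and 0 as lower, and the share of higher calls among all genes called moved from 41.8% to 53.7%. Leaving out 1 library at a time gave 20 to 26 higher genes, 12 to 14 of them in the 19S particle and 5 to 9 in the core. Of the core calls, PSMB4 was lost in 4 alternatives (adjusted p up to 0.188), PSMA4 in 3 (0.224), PSMA7 in 3 (0.0888) and PSMB3 in 1 (0.0525). Of the 19S calls, PSMD12 was lost in 5 (0.267) and PSMD8 in 2 (0.053).

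The one gene that passed as lower with MCL was PSMB8. It had 72.8, 73.9 and 74.1 CPM with TNF-α alone and 63.7, 70.8 and 64.6 with MCL. The groups lay close without overlapping, at a log2 fold change of -0.15 ± 0.05 (adjusted p = 0.0325). The call was lost with library totals (adjusted p = 0.0958), with no low-count filter (0.104), with DESeq2 (0.0831) and without any 1 of the TNF-α libraries or of MCL replicates 1 and 3 (adjusted p up to 0.184). The other immunoproteasome genes showed MCL differences of -0.09 for PSMB9, -0.07 for PSMB10, -0.01 for PSME1 and 0.00 for PSME2, all with intervals that include 0. In the MCL libraries PSMB9 had 16.0, 16.8 and 19.2 CPM, PSMB10 23.4, 24.9 and 22.9, PSME1 147, 143 and 148 and PSME2 97.2, 102 and 97.1. Each of these 4 ranges overlapped that of TNF-α alone.

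Ruxolitinib gave few calls. With it 0 of the 46 genes passed as higher and 3 as lower against TNF-α alone, where 5.15% of all tested genes were called higher and 10.6% lower. At an unadjusted p under 0.05 there were 6 higher and 6 lower genes. The share of all tested genes at that threshold is not given here, so these 2 counts are not read further. DESeq2 called 1 of the 46 higher and 1 lower, and 918 of all 16146 tested genes higher and 1408 lower. The medians of the log2 fold changes were 0.01 over the 46 genes and -0.01 over all tested genes. The 3 genes were PSME4, PSMB8 and PSMG4, and none of the 17 subunits of the 19S particle or the 14 core subunits passed. Of the catalytic subunits, PSMB5 had 107, 110.2 and 111 CPM in untreated and 110.2, 114 and 105 in ruxolitinib libraries. PSMB6 had 73.6, 84.2 and 76.3 and 83.3, 89.7 and 79.9 CPM in those groups, and PSMB7 113, 139 and 134 and 138, 135 and 129. In each of these 3 genes the untreated and the ruxolitinib libraries overlapped.

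PSME4 encodes PA200, a large activator that binds core particles without ATP. It had 177, 184 and 175 CPM with TNF-α alone and 156, 162 and 166 with ruxolitinib. All ruxolitinib libraries were below all TNF-α libraries, at a log2 fold change of -0.15 ± 0.04 (adjusted p = 0.00245), a call that held under each scaling, tool and left-out library tried. PSMB8 had 64.8, 71.1 and 61.0 CPM with ruxolitinib, below every TNF-α library, at -0.17 ± 0.05 (adjusted p = 0.0253). PSMG4, a chaperone of the alpha ring, had 28.99, 27.7 and 26.8 CPM against 24.3, 25.8 and 21.5 with ruxolitinib, also without overlap, at -0.22 ± 0.08 (adjusted p = 0.0369). The other immunoproteasome genes did not pass, with 17.96, 18.9 and 15.2 CPM for PSMB9, 22.3, 26.5 and 22.3 for PSMB10, 142, 152 and 139 for PSME1 and 91.6, 96.7 and 93.6 for PSME2, each overlapping TNF-α alone. The PSMB8 and PSMG4 calls were not stable. PSMB8 did not pass with DESeq2 (adjusted p = 0.0657) or library totals (0.053), nor without any 1 of the TNF-α libraries or of ruxolitinib replicates 1 and 3 (adjusted p up to 0.238), and PSMG4 was lost in 10 of the alternatives, among them all but 1 of the left-out libraries, ruxolitinib replicate 2 (adjusted p up to 0.288).

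Because the effects of both single drugs were read against the same TNF-α libraries, MCL and ruxolitinib were also compared directly. In that comparison 23 of the 46 genes were higher with MCL and 0 lower, where 14.3% and 13.1% of all tested genes were called. The 23 included 14 genes of the 19S particle and 5 core genes. PSMD11 differed by 0.30 ± 0.04 (adjusted p = 2.06e-08), PSME3 by 0.28 ± 0.03 (adjusted p = 1.15e-09) and PSME4 by 0.23 ± 0.04 (adjusted p = 1.08e-06) on the log2 scale. None of the 5 immunoproteasome genes differed by the test, with 95% intervals from -0.11 to 0.14 for PSMB8 and from -0.23 to 0.22 for PSMB9. Without single libraries the count of higher genes lay between 16 and 25.

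With both drugs the set divided by role. Against TNF-α alone 28 genes rose and 9 fell, where 25.5% of all tested genes were called higher and 29.3% lower. The median log2 fold change was 0.15 over the 46 genes and -0.03 over all tested genes. Of the 17 genes of the 19S particle 16 rose, and of the 14 core genes 8 rose and none fell. All 5 immunoproteasome genes fell. Among the 6 assembly genes 2 rose and 3 fell, and among the other regulators PSME3 and PSME4 rose and PSMF1 fell. Only PSMG3 reached 1.5-fold in either direction, against 9.09% of all tested genes higher and 13.9% lower by that much. In 35 of the 46 genes the groups did not overlap, as in 60.6% of all tested genes.

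In the 19S particle the highest changes with both drugs were in the ATPase PSMC6, which had 78.8, 76.8 and 80.1 CPM with TNF-α alone, 88.8, 94.3 and 86.6 with MCL, 76.7, 77.8 and 77.3 with ruxolitinib and 107, 111 and 111 with both. The libraries with both drugs lay above every other library, and the log2 fold change against TNF-α was 0.48 ± 0.04 (adjusted p = 1.09e-14). PSMD11 reached 216, 204 and 221 CPM with both drugs, against 157, 164 and 168 with ruxolitinib. Those libraries lay above all TNF-α and ruxolitinib libraries and overlapped the MCL libraries, and the change against TNF-α was 0.45 ± 0.04 (adjusted p = 1.58e-14). PSMC2 stood at 104, 108 and 104 CPM with ruxolitinib and 141, 129 and 132 with both drugs. Again all 3 libraries with both drugs were above the TNF-α, MCL and ruxolitinib libraries, at a change against TNF-α of 0.41 ± 0.04 (adjusted p = 1.41e-12).

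PSMD14 had 101, 107 and 104 CPM with TNF-α alone and 131, 129.9 and 137 with both drugs, without overlap, at 0.35 ± 0.04 (adjusted p = 2.17e-10). The remaining 19S genes that rose lay between 0.14 for PSMD12 and 0.26 for PSMD6 on the log2 scale. They include PSMD2 (0.24 ± 0.03), the large base subunit on which regulators dock, with 315, 307 and 320.5 CPM against 360.5, 384 and 372, and the ATPases PSMC3 (0.17 ± 0.04), PSMC4 (0.23 ± 0.04) and PSMC5 (0.15 ± 0.04). PSMD7 did not pass without TNF-α replicate 2 (adjusted p = 0.0796), nor PSMD12 without TNF-α replicate 1 (0.0762). PSMC1 was the exception, with 79.7, 73.6 and 77.4 CPM against 77.8, 73.8 and 75.6 and a log2 difference of -0.02 ± 0.05 (adjusted p = 0.717), with a 95% interval of -0.13 to 0.08. Of its coding bases 47.7% are shared with exons of NRDE2 on the opposite strand, and reads of the genes cannot be told apart without strand. Leaving out single libraries gave 15 or 16 higher 19S genes, and library totals 16. The summed 19S level was 2779 ± 41.3 CPM with both drugs.

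**Figure D2:**
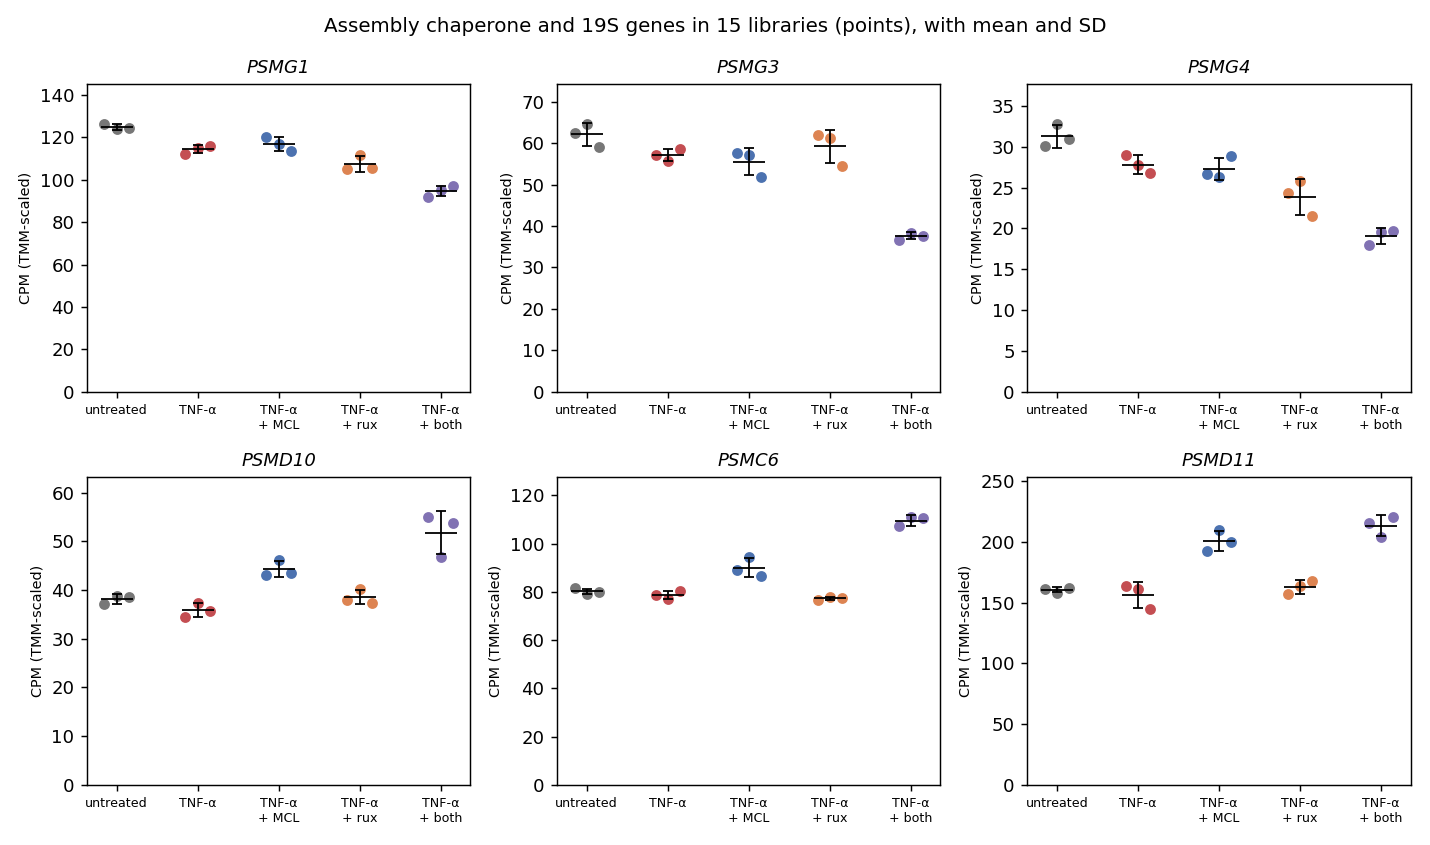
CPM (y axis, from 0) in each of the 15 libraries for the assembly chaperones PSMG1, PSMG3, PSMG4 and PSMD10 and the 19S genes PSMC6 and PSMD11, with points for libraries, long bars for means and error bars for SD. PSMG1, PSMG3 and PSMG4 are lowest, and PSMD10, PSMC6 and PSMD11 have their highest mean, with both drugs.

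Over the 14 core subunits the median log2 fold change with both drugs was 0.12, and over the 17 subunits of the 19S particle it was 0.18. PSMB6 had 94.4, 92.6 and 94.1 CPM, above all TNF-α libraries, at a log2 fold change of 0.25 ± 0.05 (adjusted p = 8.76e-06). PSMB5 had 123, 125 and 129 CPM, likewise above them, at 0.16 ± 0.04 (adjusted p = 0.000672). PSMB7 had 130.4, 135 and 134 CPM, within the TNF-α range, and a log2 difference of -0.02 ± 0.05 (adjusted p = 0.723) that did not pass. Of the alpha subunits PSMA1 (0.46), PSMA2 (0.33), PSMA3 (0.20) and PSMA5 (0.11) rose, as did the beta subunits PSMB4 (0.15) and PSMB1 (0.14). PSMA4, PSMA6, PSMB2 and PSMB3 did not pass, with log2 differences between -0.01 and 0.05. The levels of PSMA1 and PSMA2 are uncertain because of their shared exons, and PSMA2 did not pass without TNF-α replicate 2 (adjusted p = 0.256) or without replicate 1 or 3 of the combination. The PSMA5 call was lost without TNF-α replicate 1 or 2 or replicate 1 or 3 of the combination (adjusted p up to 0.155). PSMA7, whose transcript was the most abundant per kilobase of the 46, had 258, 254 and 269 CPM with TNF-α alone and 252, 262 and 265 with both drugs, with a log2 difference of 0.00 ± 0.04 (adjusted p = 0.936) and a 95% interval of -0.08 to 0.08. The summed core level was 1855 ± 30.8 CPM with both drugs against 1750.1 ± 34.3 with TNF-α alone.

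Immunoproteasome genes went the other way with both drugs. PSMB8 had 72.8, 73.9 and 74.1 CPM with TNF-α alone and 54.5, 57.5 and 59.1 with both drugs. These were the 3 lowest of the 15 libraries, below the untreated ones at 65.5, 72.9 and 66.5, and the log2 fold change against TNF-α was -0.37 ± 0.05 (adjusted p = 4.24e-08). PSMB9 had 19.4, 16.4 and 19.7 CPM with TNF-α alone and 12.0, 12.6 and 14.4 with both drugs, without overlap between those groups and within reach of the untreated 13.1, 14.4 and 13.5, at -0.51 ± 0.10 (adjusted p = 1.98e-05). PSMB10 had 20.9, 21.4 and 20.8 CPM with both drugs against 25.0, 24.3 and 25.2, again without overlap, at -0.24 ± 0.08 (adjusted p = 0.00808).

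PSME1 and PSME2 fell less, from 142, 147 and 152 to 131, 135 and 132 CPM and from 98.3, 95.3 and 103 to 86.5, 90.2 and 90.6 CPM. Neither pair of groups overlapped, and the log2 fold changes were -0.15 ± 0.04 (adjusted p = 0.00128) and -0.15 ± 0.04 (adjusted p = 0.00369). The 3 smaller changes depended on the scaling: with library totals 2 of the 5 genes passed as lower, PSMB8 and PSMB9, and the adjusted p was 0.0704 for PSMB10, 0.117 for PSME1 and 0.158 for PSME2. That scaling moved the share of higher calls among all called genes from 46.5% to 56.6%. Without TNF-α replicate 3 the adjusted p of PSME2 was 0.0515. Against untreated cells, the combination left PSMB8 lower (-0.26 ± 0.05, adjusted p = 3.97e-05), PSME2 higher (0.13 ± 0.05, adjusted p = 0.0102) and PSMB9, PSMB10 and PSME1 without a call.

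**Figure D3:**
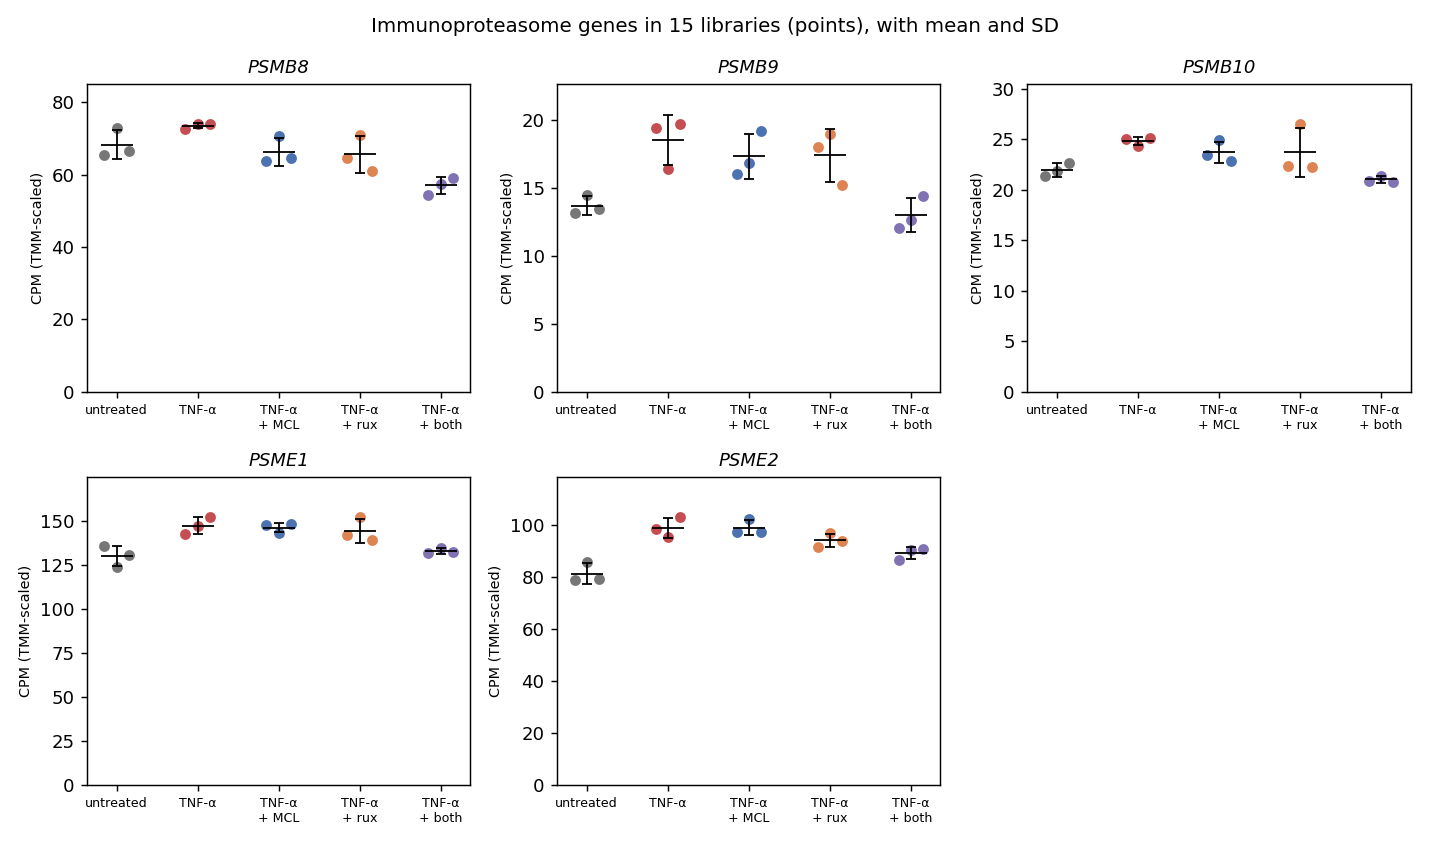
CPM (y axis, from 0) of the 5 immunoproteasome genes in each of the 15 libraries, with points for libraries, long bars for means and error bars for SD of 3 libraries. In each gene the libraries with both drugs lie below those with TNF-α alone, and PSMB8 with both drugs lies below every other library.

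Since each catalytic immunoproteasome subunit takes the place of a constitutive one, its share of the pair was computed within each library from counts per kilobase, which needs no scaling between libraries. The PSMB8 share of PSMB8 and PSMB5 was 27.3, 27.8 and 28.1% with TNF-α alone and 20.6, 21.3 and 21.2% with both drugs. The means were 26.9% ± 1.04 in untreated cells and 27.7% ± 0.436 after TNF-α alone, and MCL, ruxolitinib and the pair gave 23.8% ± 1.29, 26.0% ± 0.695 and 21.0% ± 0.339 (SD, n = 3). Libraries of each drug group lay below all TNF-α libraries, and those with both drugs below all others. The PSMB9 share of PSMB9 and PSMB6 was 7.73, 7.48 and 7.68% in untreated cells, 10.5, 8.98 and 10.5% with TNF-α and 5.65, 6.03 and 6.71% with both drugs. TNF-α libraries lay above untreated ones, and libraries with both drugs below the other 4 groups.

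For PSMB10 and PSMB7 the share was 15.1% ± 0.245 with TNF-α and 13.2% ± 0.169 with both drugs, also without overlap between those groups, while the untreated libraries, at 15.4, 13.2 and 13.995%, spanned both. In an exact two-sided permutation test of 3 libraries against 3 the smallest possible p is 0.1. That p was reached in all 3 pairs with both drugs and with MCL against TNF-α, and for PSMB9 with TNF-α against untreated cells. With ruxolitinib the exact p was 0.1 for PSMB8, 0.3 for PSMB9 and 0.6 for PSMB10. No test of this size can pass 0.05. A share does not separate a lower immunoproteasome subunit from a higher partner. With MCL, PSMB5 and PSMB6 passed as higher and PSMB7 did not. PSMB8 passed as lower with MCL in a call lost in several alternatives, and PSMB9 and PSMB10 had no call. With both drugs PSMB5 and PSMB6 were also higher, and PSMB8, PSMB9 and PSMB10 were lower.

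**Figure D4:**
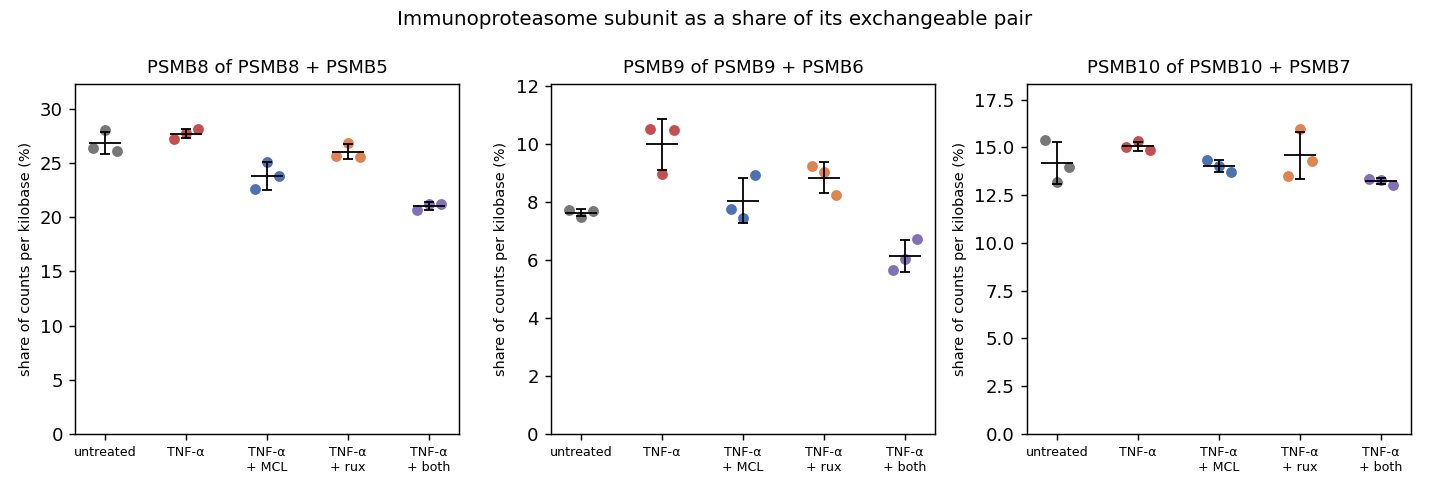
Share (y axis, % of counts per kilobase, from 0) of PSMB8, PSMB9 and PSMB10 in the sum with PSMB5, PSMB6 and PSMB7, for each of the 15 libraries, with means and SD. With both drugs the share lies below that with TNF-α alone in all 3 pairs.

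PSMG3 and PSMG4, chaperones of core assembly, had the lowest fold changes of the 46 genes with both drugs. PSMG3, which works with PSMG4 on the alpha ring, had 62.5, 64.7 and 59.1 CPM in untreated cells and 57.2, 55.8 and 58.5 after TNF-α alone. MCL gave 57.7, 57.3 and 51.8 CPM, ruxolitinib 61.9, 61.3 and 54.6 and the combination 36.7, 38.4 and 37.6. The first 4 groups overlapped in part, and the libraries with both drugs lay far below all of them. The log2 fold change against TNF-α was -0.60 ± 0.06 (adjusted p = 1.04e-13), and neither MCL (-0.04 ± 0.06, adjusted p = 0.659) nor ruxolitinib (0.05 ± 0.06, adjusted p = 0.629) alone gave a call. PSMG4 had 30.1, 32.8 and 31.0 CPM in untreated cells, 28.99, 27.7 and 26.8 after TNF-α alone, 26.7, 26.2 and 28.9 after MCL and 17.96, 19.5 and 19.7 after both drugs. Its values with both drugs were again the lowest 3 of the 15, at a log2 fold change of -0.55 ± 0.08 (adjusted p = 1.84e-08) against TNF-α.

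PSMG1, the partner of PSMG2 in the earliest step of alpha ring assembly, had 112, 115 and 116 CPM with TNF-α, 105, 112 and 106 with ruxolitinib and 91.9, 95.2 and 97.0 with both drugs. Libraries with both drugs were below all others, at -0.27 ± 0.04 (adjusted p = 7.01e-08) against TNF-α. PSMG2 itself did not follow: it had 48.1, 47.5 and 51.7 CPM with TNF-α and 53.4, 56.6 and 53.6 with both drugs, and passed as higher at 0.15 ± 0.06 (adjusted p = 0.0245), a call that was lost without TNF-α replicate 1, TNF-α replicate 2 or replicate 2 of the combination (adjusted p up to 0.0947). PSMD10 rose to 55.0, 46.7 and 53.7 CPM with both drugs, above all TNF-α and ruxolitinib libraries, at 0.53 ± 0.06 (adjusted p = 7.75e-11). PSMD9, another 19S chaperone, had a log2 difference of -0.02 ± 0.11 (adjusted p = 0.886). The falls of PSMG1, PSMG3 and PSMG4 held under each scaling, tool and left-out library tried.

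Of the remaining regulators, PSME4 had 212, 209 and 206 CPM with both drugs, above every other library, at 0.23 ± 0.04 (adjusted p = 2.79e-07) against TNF-α. PSME3 had 239, 239 and 244 CPM with both drugs, between the TNF-α and the MCL libraries, at 0.15 ± 0.03 (adjusted p = 0.000125) against TNF-α. PSMF1, which encodes the inhibitor PI31, had 116, 122 and 128 CPM with TNF-α and 111, 117 and 112 with both drugs. The groups overlapped, and the log2 fold change of -0.10 ± 0.04 (adjusted p = 0.04) did not hold in 9 alternatives (adjusted p up to 0.612), among them leaving out TNF-α replicate 2 or 3 or replicate 1 or 3 of the combination.

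The combination was next set against each drug alone. Against ruxolitinib 24 genes were higher and 7 lower with both drugs, where 24.8% and 26.8% of all tested genes were called, and 15 of the 24 were 19S genes. PSMC6 differed by 0.50 ± 0.04 (adjusted p = 1.85e-15) and PSME4 by 0.38 ± 0.04 (adjusted p = 1.46e-13), and PSMG3 by -0.66 ± 0.06 (adjusted p = 4.62e-15). Of the immunoproteasome genes PSMB8 (-0.20 ± 0.06, adjusted p = 0.00164), PSMB9 (-0.42 ± 0.10, adjusted p = 0.000432) and PSME1 (-0.12 ± 0.04, adjusted p = 0.0105) were lower. Without ruxolitinib replicate 2 the count of lower genes was 4, and PSMB8 (adjusted p = 0.0653) and PSME1 (0.184) no longer passed.

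Against MCL, 7 genes were higher and 11 lower with both drugs, with 19.6% and 22% of all tested genes called. PSMC6 (0.29 ± 0.04, adjusted p = 1.35e-07), PSMD14 (0.18 ± 0.04, adjusted p = 0.000345) and PSMC2 (0.13 ± 0.04, adjusted p = 0.00977) were among the 4 genes of the 19S particle that were higher. PSMG3 differed by -0.56 ± 0.06 (adjusted p = 2.81e-12), PSMG4 by -0.52 ± 0.08 (adjusted p = 1.34e-07) and PSMG1 by -0.30 ± 0.04 (adjusted p = 8.46e-09), and 4 of the 5 immunoproteasome genes were lower, all but PSMB10. PSMD11 did not differ by the test, at 0.09 ± 0.04 (adjusted p = 0.0676) with a 95% interval of 0.00 to 0.18. With library totals 13 genes were higher than with MCL.

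Whether the pair of drugs departed from additivity was tested directly: the single-drug log2 changes against TNF-α were added up, and the sum was subtracted from the log2 change with the combination. A non-zero value passed for 9 of the 46 genes, 3 above the sum and 6 below, where 12.2% and 12.8% of all tested genes were called. Above the sum were PSMC6 (0.31 ± 0.06, adjusted p = 9.64e-05), PSME4 (0.30 ± 0.05, adjusted p = 8.33e-06) and PSMD14 (0.21 ± 0.06, adjusted p = 0.00554). PSME4 was lower with ruxolitinib, near its TNF-α level with MCL at 0.08 ± 0.04 (adjusted p = 0.106), and higher with both drugs. Below the sum were PSMG3 (-0.62 ± 0.08, adjusted p = 1.24e-08), PSMG4 (-0.29 ± 0.11, adjusted p = 0.0413), PSMG1 (-0.21 ± 0.06, adjusted p = 0.00419), PSMA7 (-0.20 ± 0.05, adjusted p = 0.00192), PSMB3 (-0.19 ± 0.06, adjusted p = 0.023) and PSMA4 (-0.17 ± 0.05, adjusted p = 0.0128). Only PSMG3 passed 1.5-fold, as did 2.94% of all tested genes above the sum and 3.64% below it.

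The 3 core genes below the sum shared a pattern of single-drug values. PSMA7 had 285, 282 and 275 CPM with MCL and 269, 291 and 268 with ruxolitinib, and the libraries with both drugs lay with those of TNF-α alone. PSMB3 had 113, 113 and 119.5 CPM with TNF-α, 127, 130.2 and 127 with MCL and 112, 122 and 124 with both drugs. PSMA4 had 173, 177 and 179 CPM with TNF-α, 197, 188 and 183 with MCL and 171, 173 and 188 with both drugs. In each of them MCL alone passed as higher and the combination did not differ from TNF-α by the test. Without replicate 1 of the combination 3 genes in place of 6 were below the sum, and PSMB3 and PSMA4 were lost with adjusted p of 0.104 and 0.052. The PSMG4 value was lost in 9 alternatives (adjusted p up to 0.128), including DESeq2 and 6 left-out libraries. None of the 5 immunoproteasome genes passed the test of additivity, though all 5 estimates lay below the sum, from -0.32 to -0.05. PSMB9 was at -0.32 ± 0.14 (adjusted p = 0.0915). Without single libraries 0 or 1 of the 5 passed as below the sum. No 19S gene apart from PSMC6 and PSMD14 passed.

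**Figure D5:**
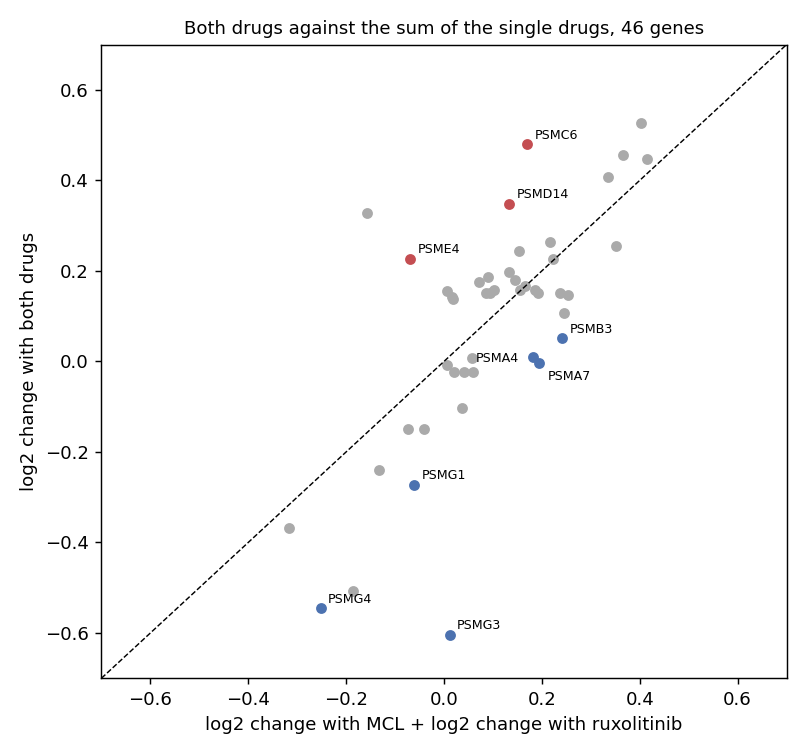
Log2 fold change of each of the 46 genes with both drugs (y axis) against the sum of its log2 fold changes with MCL and with ruxolitinib (x axis), all against the shared TNF-α libraries. Genes on the dashed line equal the sum; red points (3) passed as above it, blue points (6) as below it and grey points did not pass, and PSMG3 lies farthest below.

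Relative to untreated cells, 31 of the 46 genes were higher and 2 lower with TNF-α and MCL (17.2% and 16.9% of all tested genes), 10 higher and 4 lower with TNF-α and ruxolitinib (17.8% and 19%), and 29 higher and 5 lower with all 3 agents (28.3% and 29.1%). These comparisons share the untreated libraries. PSMG3 and PSMG4 were the only genes past 1.5-fold, at -0.72 ± 0.06 (adjusted p = 4.53e-17) and -0.72 ± 0.08 (adjusted p = 2.75e-12) with all agents, where 12.3% of all tested genes were higher and 13.3% lower by as much. PSMC3IP, the one gene with no role in the proteasome, was higher than in untreated cells with all agents at 0.43 ± 0.10 (adjusted p = 0.000124), and in no drug group did it differ by the test from TNF-α alone. The counts for ruxolitinib fell to 5 higher genes without untreated replicate 1 and to 4 without ruxolitinib replicate 2.

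Genes that work with the proteasome but lie outside the PSM names were taken from a list of 28, chosen with earlier results of these data known. With TNF-α 5 of them (17.9%) were higher and 7 (25%) lower than in untreated cells, where 14.1% and 12.5% of all tested genes were called. Against TNF-α alone 17 were higher and 1 lower after MCL, 2 and 5 after ruxolitinib and 17 and 3 after the pair, with median log2 fold changes of 0.19, -0.01 and 0.20. Over all tested genes the shares called higher and lower were 10.9% and 15.1% for MCL, 5.15% and 10.6% for ruxolitinib and 25.5% and 29.3% for the pair. SQSTM1, the ubiquitin-binding autophagy receptor p62, changed by 1.14 ± 0.03 (adjusted p = 7.43e-38) with MCL and 1.57 ± 0.03 (adjusted p = 2.93e-46) with both drugs. ZFAND2A, an arsenite-inducible protein that binds the 19S particle, changed by 0.60 ± 0.10 (adjusted p = 8.45e-07) and 1.56 ± 0.09 (adjusted p = 1.16e-23). NFE2L1, the activator of proteasome genes described above, changed by 0.26 ± 0.04, 0.26 ± 0.04 and 0.66 ± 0.04 with MCL, ruxolitinib and both, and AKIRIN2, which carries proteasomes into the nucleus, by 0.37 ± 0.06 with MCL and 0.74 ± 0.05 with both. The AKIRIN2 difference with ruxolitinib, -0.13 ± 0.06 (adjusted p = 0.11), did not pass. Neither POMP, the chaperone that completes core assembly, at -0.05 ± 0.05 (adjusted p = 0.333), nor SEM1, a small 19S subunit, at 0.13 ± 0.07 (adjusted p = 0.103), passed with both drugs.

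Of 9 genes that act with the immunoproteasome in antigen presentation, 7 were higher with TNF-α and 0 lower, and against TNF-α alone 4 were lower after MCL, 5 after ruxolitinib and 8 after the pair, with 0 higher in each. Of all tested genes 14.1% were higher with TNF-α, and 15.1%, 10.6% and 29.3% were lower in the drug comparisons, in that order. The peptide transporter gene TAP1 changed by 1.39 ± 0.06 (adjusted p = 1.91e-28) with TNF-α and -1.20 ± 0.06 (adjusted p = 2.5e-26) with both drugs, and the transcription factor gene IRF1 by 1.79 ± 0.10 (adjusted p = 8.85e-21) and -0.79 ± 0.09 (adjusted p = 1.86e-10). For the immunoproteasome genes the same comparisons gave log2 fold changes of 0.11 to 0.43 with TNF-α and -0.51 to -0.15 with both drugs. The combination and single-drug values again share the TNF-α libraries, and the 9 genes were chosen with earlier results of these data known.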

How the data were processed

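The deposited table holds raw counts per gene, made by the authors and matching GENCODE 29 in all 58735 gene identifiers. The submitters' processing notes name HISAT2 2.0.5, featureCounts 1.5.0-p3 and DESeq2 1.16.1 and the builds hg38 and mm10, without saying what each was used for. The strand setting and the treatment of shared exons are not stated. The columns named Control were taken as the untreated samples. From these counts, 42589 genes with low counts were removed (edgeR 4.0.16, filterByExpr, minimum count 10), TMM factors were computed, and 1 quasi-likelihood model over the 5 groups was fitted in R 4.3.3 to the remaining 16146 genes, with Benjamini-Hochberg adjustment over all of them at 0.05. Standard errors were derived from the fold change and its F statistic, and 95% intervals from t with 10 degrees of freedom. Levels are CPM or RPKM with the deposited gene lengths. These lengths equal the merged annotated exons in all 49 genes with a matching symbol. Library totals of 15476399 to 18035604 counts limit the precision of genes with few counts. The fit was tested on simulated data, with changes set in genes drawn from all those tested. Comparisons of 2 groups recovered 48% to 54% of 1.5-fold changes and 50% of 1.25-fold changes. The test of additivity recovered 44% and 34%. The drawn genes were not matched to the 46 members in count, so these rates do not give the recovery among the members. Among the members, changes smaller than 1.25-fold were called. A gene without a call may still have changed.

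By rule, values in every library are given for the 5 immunoproteasome genes and for PSMB5, PSMB6 and PSMB7, and, for the groups a comparison concerns, values by library for the 4 members with the smallest p among those that passed with MCL, with ruxolitinib, with the combination and in the test of additivity; of the linked lists, at most the 6 genes with the smallest p are named. PSMG1, PSMG2, PSMD2, PSMD10, PSMD14, PSMC1, PSMF1, PSMB3, PSMA4, POMP and SEM1 were shown in addition, after their values were seen. The values of 1 listed gene are not reported here. The members, the lists of linked genes and the motifs were chosen with earlier results of these data known. Alternatives were other scalings (DESeq2 size factors, library totals), no low-count filter, DESeq2 1.42.0, only the groups compared, a replicate block and leaving out each library. Added after seeing the data was a count without members that share over 10% of coding bases with another gene. Correlations between libraries showed no clear pairing by replicate number.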

Additional observations from a re-analysis of the deposited data

Results flagged for a closer look

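For 9 of the 46 genes what MCL did alongside ruxolitinib differed from what it did without, by the test of that difference itself. These were 3 genes above and 6 below, and among all tested genes 12.2% passed above and 12.8% below (25% in all), so the share of the 46 that passed in either direction was below that of all genes. The log2 effect was larger with ruxolitinib for the ATPase PSMC6 (by 0.31), the activator PSME4 (0.30) and the deubiquitinase PSMD14 (0.21). With its sign kept, it was lower with ruxolitinib for the chaperones PSMG3 (-0.62), PSMG4 (-0.29) and PSMG1 (-0.21). The same held for the core subunits PSMA7 (-0.20), PSMB3 (-0.19) and PSMA4 (-0.17). Lower does not mean weaker here: for PSMG3 the log2 effect of MCL was -0.04 without ruxolitinib and -0.66 with it. Of these calls, PSMB3 (adjusted p = 0.104) and PSMA4 (0.052) were lost without replicate 1 of the combination, among other libraries, and PSMG4 in 9 alternatives (adjusted p up to 0.128). Only for PSMG3 did the difference pass 1.5-fold. The part of the falling haematopoietic marker sum in these values was not tested.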

How the results depend on the processing

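Deviations of libraries with the same replicate number correlated between -0.05 and 0.05 over 30 pairs. For different numbers the range was -0.07 to 0.07 over 60 pairs, and 7 of the 15 libraries correlated best with their own number. These values show no clear effect of the number, and they cannot tell whether cultures were shared. With replicate number as a block 5 genes were higher with TNF-α, 25 higher and 1 lower with MCL, 0 and 3 with ruxolitinib and 28 and 9 with both drugs, and the one call lost was PSMC3IP with TNF-α (adjusted p = 0.0508).

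With library totals 6 genes were lower with TNF-α, 0 lower with MCL, 2 higher and 1 lower with ruxolitinib, 5 lower with both drugs, and 13 higher with both than with MCL. With DESeq2 size factors 1 was higher with ruxolitinib and 4 lower with MCL against untreated cells; with DESeq2 0 were lower with MCL, and 1 higher and 1 lower with ruxolitinib; with no filter 0 were lower with MCL, and 1 lower with MCL against untreated cells. Without the members with shared coding bases, a count chosen after seeing the data, 0 were lower with MCL. Leaving out 1 library gave ranges of 3 to 8 higher and 0 to 2 lower with TNF-α, 0 to 1 lower with MCL, 0 to 2 higher and 1 to 3 lower with ruxolitinib, 4 to 9 lower with both than with ruxolitinib, 0 to 3 lower with MCL and 4 to 12 higher with ruxolitinib against untreated cells, and 3 to 8 below the sum. The extremes came without untreated 3 (3 higher with TNF-α), TNF-α 1 (0 lower with TNF-α, where untreated 1, untreated 2 and TNF-α 2 left 1), ruxolitinib 3 (2 higher), any TNF-α library, ruxolitinib 1 or ruxolitinib 3 (1 lower with ruxolitinib) and untreated 2 (0 lower with MCL against untreated).

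Unscaled by length, the PSMB8 shares were 38.4% untreated, 39.5% after TNF-α, and 34.7%, 37.4% and 31.1% after MCL, ruxolitinib and both, the PSMB9 shares 14.9%, 19.04%, 15.6%, 17.0% and 12.2%, and the PSMB10 shares 15.53%, 14.5% and 13.7% after TNF-α, MCL and both. Summed CPM with library totals was 1708 and 1909 for the core, 2318 and 2859 for 19S, 288 and 276 for assembly and 505 and 579.5 for activator genes, with TNF-α and with both drugs, and 322 for the immunoproteasome with both.

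Of 3198 values for 262 pairs of gene and comparison, 2904 kept direction and call, 258 lost the call, 9 gained it and 27 changed sign. Every sign change was in a value without a call near 0, and the cause was not tested. PSMA4 with both drugs was -0.028 to 0.042 without single libraries. PSMA7 with both drugs was 0.019 (DESeq2 size factors), 0.072 (library totals), 0.017 (no filter), 0.012 (only the groups compared) and 0.019 (DESeq2) and -0.017 to 0.024 without single libraries. PSMB7 with both drugs was 0.052 (library totals) and -0.048 to 0.0015 without single libraries. PSMB9 with ruxolitinib was -0.17 to 0.0041 without single libraries. PSMD14 with ruxolitinib was -0.059 to 0.010 without single libraries. PSME1 with MCL was 0.0016 (DESeq2 size factors), 0.023 (library totals), 0.013 (no filter), 0.0052 (only the groups compared) and 0.0016 (DESeq2) and -0.030 to 0.019 without single libraries. PSME1 with ruxolitinib was -0.050 to 0.0034 without single libraries. PSME2 with MCL was -0.021 to 0.035 without single libraries. PSMG3 with MCL was -0.065 to 0.014 without single libraries. PSMG4 with MCL was 0.0050 (library totals) and -0.065 to 0.0045 without single libraries.

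PSMA2, PSMA6, PSMD9 and PSMB9 had the lowest mean counts of the 46, which limits the precision of their values. Of these, PSMA2, PSMA6 and PSMD9 share most of their coding bases with another gene on the same strand. The part of that sharing in their low counts was not tested. Doses, separate cultures and strand are unknown, 24 of the 46 genes share exon bases with another gene, and drugs without TNF-α were not analysed here.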
